A study of Mus musculus with 23 samples.

Results

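The angiopoietins Angpt1 and Angpt2, their receptor Tek, the related receptor Tie1 and the phosphatase Ptprb were followed in FAC-sorted cells of Py2T tumours, both the tumour cells themselves and the endothelial cells of their vessels. These 5 genes were chosen by name, and all 5 were found among the 19938 genes measured, each through 1 transcript cluster. The Py2T line comes from murine breast cancer, and the tumours arose in a mammary fat pad of female FVB/N mice. Control mice stayed untreated, and the others received nintedanib, a kinase inhibitor directed at receptors of the PDGF, FGF and VEGF families, at 50 mg per kg once their tumours could be measured. Treatment lasted 7 days (short-term) or 21 days (long-term), and the controls had tumours as large as the long-term ones, so the short-term tumours had no controls of their own size. Tumour cells gave 3 untreated, 4 short-term and 5 long-term arrays, and endothelial cells 3, 3 and 5. All tumours came from 1 cell line. Whether an array held the cells of 1 mouse or of several, and which surface markers the sort used, is not given in the sources used here. The arrays of a group are called biological replicates in the labels, and p-values measure the spread between these arrays.

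Angiopoietins are secreted ligands of the receptor tyrosine kinase Tek, also known as Tie2, which sits on endothelial cells. Angpt1 activates Tek and favours quiescent, sealed vessels, and it is known mainly as a product of cells around the vessel. Angpt2 is made by endothelial cells, is stored in their Weibel-Palade bodies, and can block or weakly activate Tek depending on context. Tie1 binds no angiopoietin by itself and modulates Tek, and Ptprb (VE-PTP) is an endothelial phosphatase that removes phosphate from Tek and from partners of VE-cadherin. The axis is known in tumours for its link to vessel sprouting and to the response to VEGF blockade.

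Levels are RMA log2 signals, so 1 unit is a 2-fold step, and differences are given with the standard error of the limma fit. Calls required an adjusted p below 0.05 (Benjamini-Hochberg over all genes). Each level is compared with levels of the same gene only, since probes of different genes differ in brightness. RMA values carry no detection call, so whether the low levels lie above background was not tested. The sorted populations separated by their endothelial markers: all 18 were called higher in untreated endothelial than in untreated tumour cells. Their mean ran from 9.84 to 10.40 in the 11 endothelial arrays and from 4.13 to 4.40 in the 12 tumour arrays. Of 5 lymphatic markers 2 were called higher and 0 lower in untreated endothelial cells, with a median difference of 0.24. The receptor gene Flt4 was 5.06 units higher, while Lyve1 differed by 0.01. Of 8 epithelial markers 3 were called lower in untreated endothelial cells and 0 higher, while 3 had positive differences. Epithelial means were 5.75 to 6.33 in untreated endothelial and 6.95 to 7.05 in untreated tumour arrays. In the long-term groups they overlapped, at 5.60 to 7.85 in endothelial and 6.84 to 7.45 in tumour arrays.

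The 3 genes of the receptor complex were endothelial in every array. Untreated endothelial cells had Tek levels of 8.82, 9.96 and 9.63, and untreated tumour cells 3.18, 3.50 and 3.10. Tie1 was at 9.29, 9.64 and 9.82 in the endothelial and at 4.20, 4.42 and 4.14 in the tumour arrays. Ptprb was at 9.99, 10.27 and 10.59 against 3.68, 3.87 and 3.67. The groups lay far apart for each of the 3 genes, with gaps wider than the range within either group. In the fit Tek was higher in endothelial cells by 6.21 ± 0.26 units (SE, n = 3 and 3), or 74.2-fold, with a limma adjusted p = 3.75e-13. Tie1 was higher by 5.33 ± 0.17 units, or 40.2-fold (adjusted p = 7.02e-15), and Ptprb by 6.54 ± 0.21 units, or 93.1-fold (adjusted p = 4.26e-15). After 7 days the differences were 6.26 for Tek, 5.29 for Tie1 and 6.37 for Ptprb, and after 21 days 6.05, 5.17 and 5.93.

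The Tie1 promoter is printed because Tie1 was one of the genes that set the endothelial arrays apart and because ETS family factors, which are known to act on endothelial promoters, were among the transcription factor genes followed here. The RefSeq table (GRCm38.p6) held promoters for 2 of the 5 genes, Tek and Tie1. The stretch shown is the 250 bases before the Tie1 start on the minus strand, chr4:118489850-118490099, with each match to GGAAG or its reverse complement CTTCC, the core of many ETS sites, in capitals.
Tie1: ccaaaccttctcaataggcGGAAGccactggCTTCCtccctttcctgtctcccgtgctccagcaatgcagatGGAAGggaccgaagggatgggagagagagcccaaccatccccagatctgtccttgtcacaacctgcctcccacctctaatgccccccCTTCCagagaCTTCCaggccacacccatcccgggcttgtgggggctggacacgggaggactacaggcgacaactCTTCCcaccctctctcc
Within the table's window of 300 bases, which adds 50 bases after the start, Tie1 held 7 such matches on both strands together, 6 of them before the start. Of the 32851 promoters of that length 71.4% held at least 1 match and 0.234% held 7 or more. The Tek window held 0 matches to GGAAG, and 1 match to the GATA letters AGATAA, which 11.2% of the promoters hold. Most of that Tek window lies inside the span RefSeq gives for the gene, so it may be transcribed sequence and its letters are not printed. Neither window held the forkhead letters GTAAACA (in 3.65% of promoters) or the hypoxia response letters ACGTG (in 19.6%), searched on both strands. These matches describe the letters of the windows and show no binding.

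The ligands divided between the cell types. Angpt1 was the only one of the 5 genes that was higher in tumour cells, with levels of 8.65, 8.26 and 9.03 in untreated tumour arrays and 4.89, 4.61 and 6.59 in untreated endothelial arrays. Angpt2 went the other way, at 7.06, 6.96 and 7.49 in endothelial and 5.55, 4.77 and 5.42 in tumour arrays. Neither pair of groups overlapped. Angpt1 was lower in endothelial cells by -3.29 ± 0.58 units (n = 3 and 3), or 9.76-fold, with a limma adjusted p = 0.000344. Angpt2 was higher there by 1.92 ± 0.41 units, or 3.80-fold (adjusted p = 0.00181). In the treated groups the Angpt1 difference was -3.25 ± 0.54 after 7 days and -3.49 ± 0.45 after 21 days. The Angpt2 difference was 2.14 ± 0.38 after 7 days and 2.95 ± 0.31 after 21 days, or 4.41-fold and 7.72-fold.

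**Figure D1:**
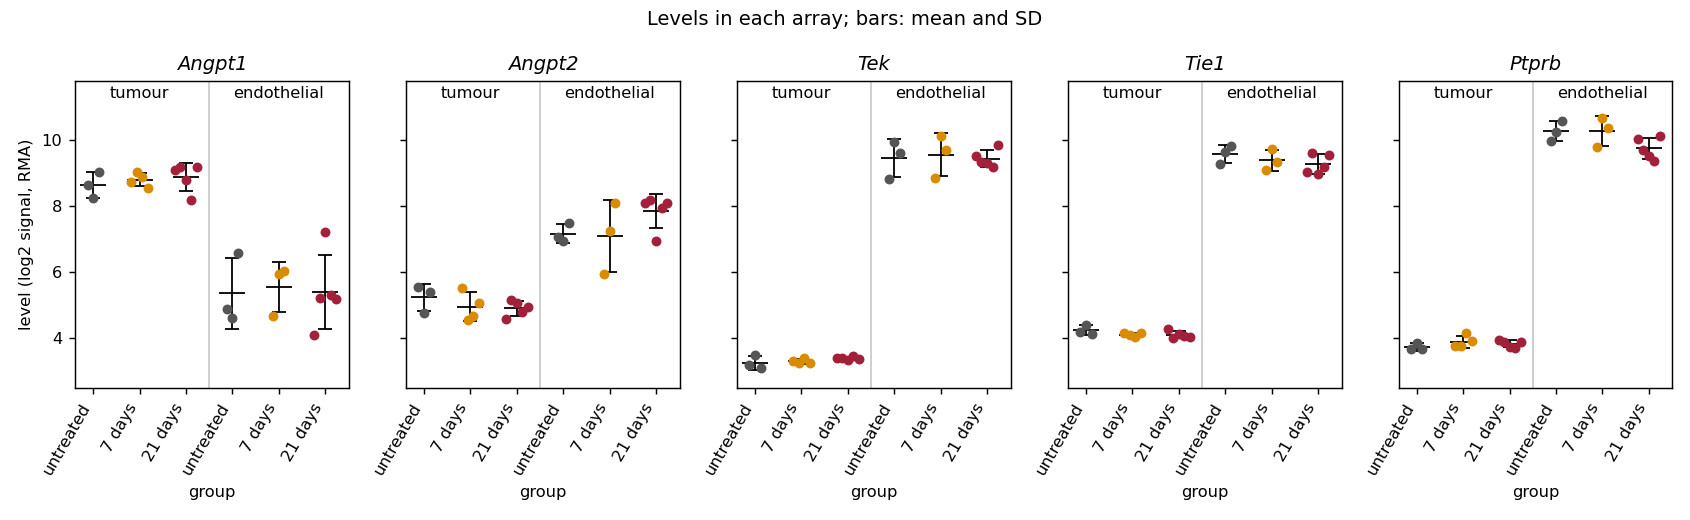
RMA log2 level (vertical axis) of each of the 5 genes in every array, by cell type and treatment group; points are arrays and bars the mean and SD. Angpt1 sits higher in the tumour arrays, and the other 4 genes sit higher in the endothelial arrays.

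In each of the 3 treatment groups all 5 genes were called between the cell types, 4 higher and 1 lower in endothelial cells. Of all 19938 genes, 8.18% were called higher and 10.2% lower in the comparison of untreated cells, 23% and 17% after 7 days, and 15.7% and 16.3% after 21 days. No pair of endothelial and tumour groups overlapped for any of the 5 genes, against 35.7%, 44.3% and 23.5% of all genes in the untreated, the 7-day and the 21-day comparison. Both the background share and the number of arrays differ between the treatment groups, so these shares are not to be compared with each other. Markers of other cell types were examined in the same arrays. In untreated cells 1 of 15 macrophage markers, C1qb, was called higher in endothelial arrays and all 15 had positive differences, with list means of 5.18 to 7.05 against 4.34 to 4.87. Of 10 pericyte and smooth muscle markers 6 were higher, among them Abcc9 (5.17 units) and Rgs5 (2.86), and Pdgfrb was lower (-2.28). Of 8 fibroblast markers 0 were called higher and 2 lower in untreated endothelial cells, while 6 had positive differences. Fibroblast means were 6.36 to 6.42 in untreated endothelial and 6.40 to 6.87 in untreated tumour arrays. The 3 endothelial arrays highest in macrophage markers were untreated replicate 1 and long-term replicates 3 and 4. Without them, a choice made after seeing the data, all 5 genes were still called in the untreated and the 21-day comparison. The untreated endothelial group had then lost 1 of its 3 arrays. No short-term array was left out, so the 7-day estimates could not change. The untreated differences were then 6.54 for Tek, 5.47 for Tie1, 6.69 for Ptprb, 1.98 for Angpt2 and -3.05 for Angpt1. Whether pericyte or fibroblast RNA contributes to the ligand levels of either cell type was not tested. In such sorted bulk samples fewer expressing cells and less RNA per cell cannot be told apart.

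**Figure D2:**
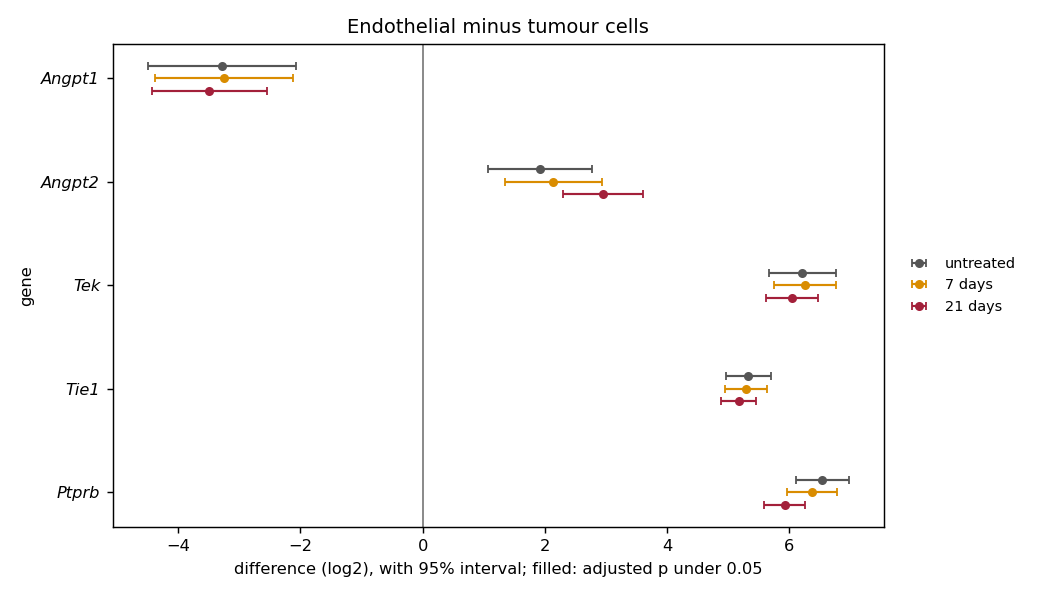
Difference in level between endothelial and tumour cells (log2, horizontal axis) for each gene in untreated, 7-day and 21-day groups; points are limma estimates and bars their 95% intervals. All 15 intervals lie away from 0, below it for Angpt1 and above it for the other 4 genes.

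Ordered by mean level over the 6 groups, each gene fell into an upper and a lower block of 3 groups, 1 block per cell type. The step between the blocks was 3.09 units for Angpt1, 1.85 for Angpt2, 6.05 for Tek, 5.03 for Tie1 and 5.86 for Ptprb, and the groups on either side did not overlap. Within the blocks all neighbouring groups overlapped. Of these 20 neighbouring pairs, 17 differed by less than the larger SD of the pair. The other 3 were long-term over untreated endothelial cells for Angpt2 (by 0.69, larger SD 0.51), short-term over long-term endothelial cells for Ptprb (by 0.51, larger SD 0.45), and long-term over short-term tumour cells for Tek (by 0.09, larger SD 0.07).

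In treated endothelial cells neither Tek nor Tie1 passed the test, after 7 or after 21 days. The question these comparisons address is how the vessels' genes respond to short and to long exposure to an anti-angiogenic drug. Tek was at 8.85, 10.13 and 9.71 after 7 days and at 9.52, 9.36, 9.33, 9.18 and 9.85 after 21 days. Tie1 was at 9.09, 9.74 and 9.34 after 7 days and at 9.04, 9.63, 8.99, 9.20 and 9.56 after 21 days. Both genes overlapped with their untreated levels in each case. Against untreated cells Tek differed by 0.09 ± 0.35 after 7 days (95% interval -0.69 to 0.88, adjusted p = 0.955) and by -0.02 ± 0.32 after 21 days (-0.72 to 0.68). Tie1 differed by -0.19 ± 0.23 (-0.70 to 0.32, adjusted p = 0.835) and by -0.30 ± 0.21 (-0.76 to 0.16). Each of these intervals lies within a 2-fold change in either direction, but the estimates depended on the model. With the mean of the dissociation and immediate early markers as a covariate, Tek was at 1.52 ± 0.44 after 7 days (limma adjusted p = 0.529) and 1.57 ± 0.46 after 21 days (adjusted p = 0.734), outside the intervals above. Tie1 was then at 0.48 ± 0.38 and 0.45 ± 0.40, with its direction turned.

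Ptprb had its lowest endothelial mean after 21 days. Its levels were 9.79, 10.67 and 10.38 after 7 days and 10.04, 9.72, 9.52, 9.39 and 10.14 after 21 days. Of the 5 long-term arrays 3 lay below all 3 untreated and all 3 short-term ones, and the other 2 overlapped with them. The long-term mean of 9.76 ± 0.32 (SD, n = 5) compared with 10.28 ± 0.30 in untreated cells (n = 3) and 10.28 ± 0.45 in short-term cells (n = 3). The difference was -0.52 ± 0.24 against untreated cells (95% interval -1.05 to 0.01, limma adjusted p = 1.00) and -0.51 ± 0.24 against short-term cells (-1.05 to 0.02, adjusted p = 0.535). After 7 days it was -0.0045 ± 0.27. None of these passed the test. Macrophage marker means also differed between these arrays, at 4.41 to 4.78 after 7 days and 4.77 to 7.11 after 21 days. With that mean as a covariate the difference between long-term and short-term cells was -0.27, while that between long-term and untreated cells stayed at -0.52. With the dissociation marker mean as a covariate the difference from untreated cells turned to 0.66 ± 0.37 after 21 days and to 1.05 ± 0.35 after 7 days, neither of which passed, while that between long-term and short-term cells was -0.39 ± 0.17.

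Angpt2 had its highest endothelial mean after 21 days, and 1 array stood apart. Its levels were 5.94, 7.26 and 8.10 after 7 days and 8.10, 8.18, 6.96, 7.96 and 8.11 after 21 days. Of the 5 long-term arrays 4 lay above all untreated arrays, and replicate 3 lay just below the lowest of them. The long-term mean was 7.86 ± 0.51 (SD, n = 5), against 7.17 ± 0.28 in untreated and 7.10 ± 1.09 in short-term cells (n = 3 each). The difference from untreated cells was 0.69 ± 0.44 units, or 1.62-fold (95% interval -0.28 to 1.67, limma adjusted p = 1.00). From short-term cells it was 0.76 ± 0.44 (adjusted p = 0.607), and from untreated to short-term cells -0.07 ± 0.49 (adjusted p = 0.978). None passed the test. With the dissociation marker mean as a covariate the difference from untreated cells was 1.71 ± 0.97 after 21 days and turned to 0.84 ± 0.91 after 7 days. Without long-term replicate 3 the difference from untreated cells was 0.92, and without short-term replicate 1 the difference between long-term and short-term cells was 0.18, against 1.26 without short-term replicate 3.

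Angpt1 varied most among the endothelial arrays. It was at 4.69, 5.95 and 6.05 after 7 days and at 4.09, 5.21, 7.22, 5.31 and 5.19 after 21 days. The untreated mean of 5.36 ± 1.07 (SD, n = 3) compared with 5.56 ± 0.76 after 7 days (n = 3) and 5.41 ± 1.13 after 21 days (n = 5), so the means lay closer together than the spread within any group. The fit gave 0.20 ± 0.75 for 7 days and 0.04 ± 0.67 for 21 days against untreated cells, with adjusted p = 0.955 and adjusted p = 1.00. Its intervals, -1.47 to 1.87 and -1.45 to 1.54, leave room for a 2-fold change in either direction. The highest value, in long-term replicate 3, came with the highest mean of 100 tumour-high genes (7.26, against 5.21 to 6.83 in the other 10 endothelial arrays) and the highest macrophage mean (7.11). That array also had the highest fibroblast marker mean of the endothelial arrays (7.10). The next highest Angpt1 level, 6.59 in untreated replicate 3, came with a tumour-high mean of 5.83 and a macrophage mean of 5.18. Long-term replicates 4 and 2, with tumour-high means of 6.83 and 6.65, had Angpt1 levels of 5.31 and 5.21. The 100 genes were picked on these samples for their excess in untreated tumour over untreated endothelial cells, and their means in tumour arrays ran from 8.56 to 8.93. The part of tumour cell, macrophage and fibroblast RNA in these Angpt1 and Angpt2 values was not tested.

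**Figure D3:**
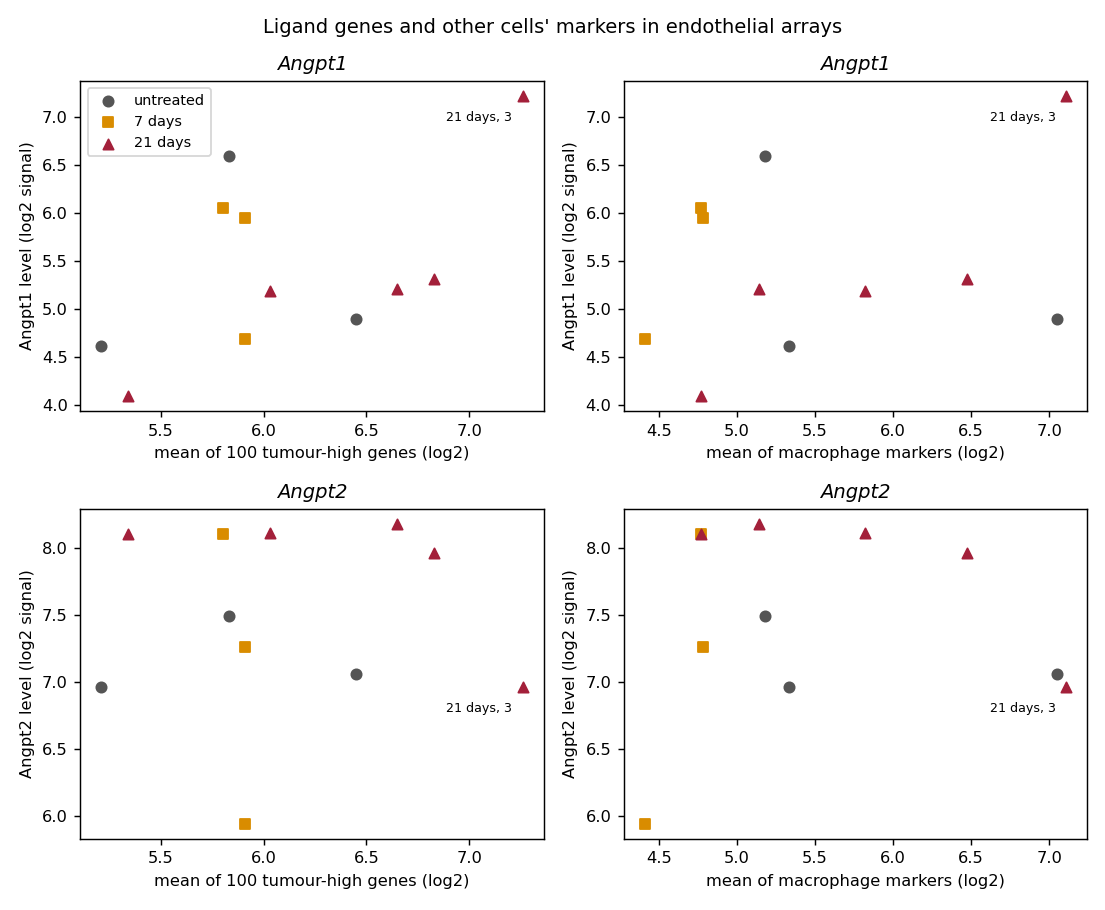
Angpt1 (upper row) and Angpt2 (lower row) log2 level in the 11 endothelial arrays against the mean log2 level of 100 tumour-high genes (left) and of the macrophage markers (right); each point is an array. The labelled long-term replicate 3 has the highest Angpt1 (7.22), the lowest Angpt2 of its group (6.96) and the highest value on both horizontal axes.

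The ligands were also set against each other within arrays. The log2 level of Angpt2 minus that of Angpt1, read only as a change between arrays, was 2.17, 2.35 and 0.90 in untreated, 1.25, 1.32 and 2.05 in short-term and 4.01, 2.97, -0.26, 2.65 and 2.92 in long-term endothelial cells. In tumour cells it ran from -3.61 to -3.10 untreated, -4.47 to -3.21 after 7 days and -4.53 to -3.39 after 21 days. Of the 5 long-term endothelial arrays 4 lay above all untreated and short-term ones, while replicate 3 was the lowest of all 11. As a combination of 2 members chosen with results known, it was given no test.

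In tumour cells none of the 5 genes passed the test under treatment. Angpt1 was at 8.74, 9.03, 8.90 and 8.56 after 7 days and at 9.11, 9.18, 8.80, 8.18 and 9.20 after 21 days, with differences from untreated cells of 0.16 ± 0.24 and 0.25 ± 0.23. Angpt2 was at 5.53, 4.56, 4.68 and 5.07 after 7 days and at 4.58, 5.15, 5.08, 4.79 and 4.96 after 21 days, with differences of -0.29 ± 0.24 and -0.33 ± 0.23. Both overlapped with the untreated levels. The limma adjusted p was 0.889 and 0.760 for Angpt1, and 0.749 and 0.659 for Angpt2. Their intervals exclude a 2-fold change in both comparisons, with outer bounds of 0.75 for Angpt1 and -0.83 for Angpt2. The receptor genes stayed low in all 12 tumour arrays, between 3.10 and 3.50 for Tek, 4.02 and 4.42 for Tie1 and 3.67 and 4.16 for Ptprb. Their differences from untreated cells ran from -0.15 (Tie1, 7 days) to 0.16 (Ptprb, 7 days).

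Across the 6 treatment comparisons limma called 0 of the 5 genes in each, and 0 of 5 had an unadjusted p under 0.05 in each. Of all genes, 0% were called in each of the 3 endothelial comparisons, where 8.17% (7 days against untreated), 4.18% (21 days against untreated) and 9.4% (21 against 7 days) had an unadjusted p under 0.05. In tumour cells 0.507%, 0.0903% and 1.22% were called in the same order, and 11%, 10.1% and 11.9% had an unadjusted p under 0.05. In none of the 6 comparisons did the groups of any of the 5 genes fail to overlap, while 13.8%, 3.51% and 5.9% of all genes did so in endothelial and 10.2%, 6.03% and 5.34% in tumour cells. The comparisons against untreated cells share their untreated arrays. Dissociation and immediate early markers moved with treatment in the endothelial arrays: all 11 had positive differences from untreated cells in both comparisons, with 0 called by limma and medians of 0.87 (7 days) and 0.99 (21 days). Their means ran from 8.18 to 8.71 in untreated, 9.25 to 9.53 in short-term and 9.10 to 9.87 in long-term endothelial arrays, without overlap with the untreated ones. That mean was the covariate behind the values given above for Tek, Tie1, Ptprb and Angpt2. Because its ranges in treated and untreated endothelial arrays do not overlap, a shift along with it and a shift with treatment can hardly be told apart in these comparisons. The same markers were higher in treated tumour cells, with 11 of 11 positive in both comparisons, 3 called and a median of 0.84 after 7 days, and 1 called and a median of 0.28 after 21 days. Their part in the tumour cell values of the 5 genes was not tested.

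**Figure D4:**
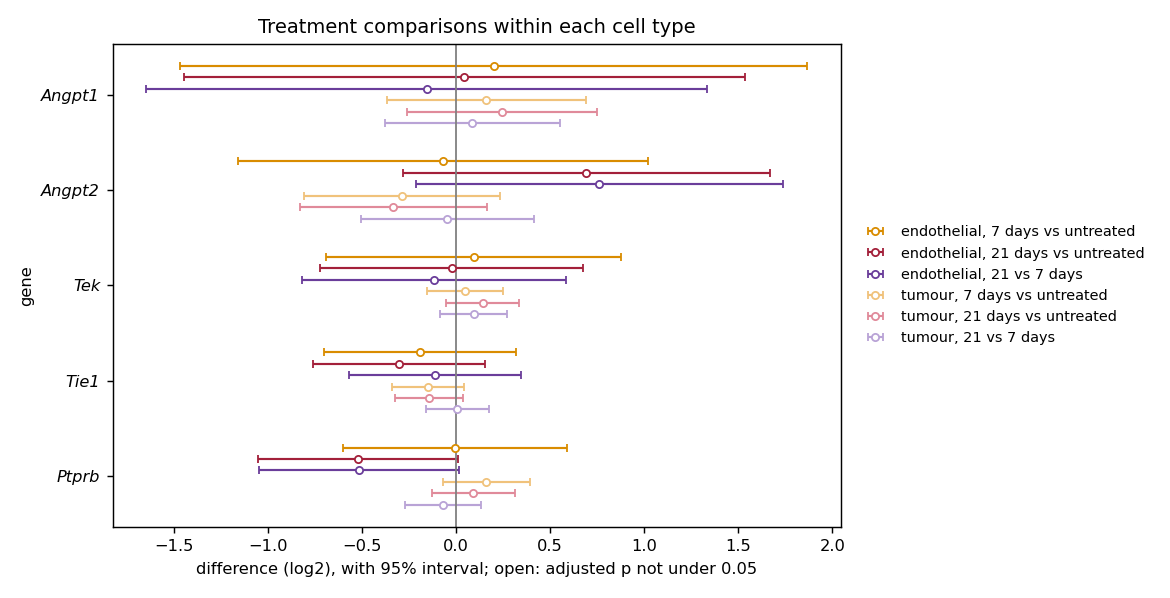
Difference in level (log2, horizontal axis) of each gene between treatment groups, in endothelial and tumour cells; points are limma estimates and bars their 95% intervals. All 30 intervals include 0, and those of Angpt1 and Angpt2 in endothelial cells are the widest.

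The treatment effects were also compared between the cell types, in 1 fit over all 23 arrays. For 21 days the effect on Ptprb was lower in endothelial than in tumour cells by -0.61 ± 0.26 (95% interval -1.16 to -0.06, limma adjusted p = 0.873). The effect on Angpt2 was higher in endothelial cells by 1.02 ± 0.51 (-0.05 to 2.10, limma adjusted p = 0.930). Tek, Tie1 and Angpt1 had differences of -0.16, -0.16 and -0.20. For 7 days the differences ran from -0.17 (Ptprb) to 0.22 (Angpt2). Limma called 0 of 5 genes in both, against 0.0953% of all genes for 7 days and 0% for 21 days. At an unadjusted p under 0.05 there were 0 of the 5 genes for 7 days and 1, Ptprb, for 21 days, against 11% and 5.33% of all genes.

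The 3 receptor complex genes had positive correlations among the endothelial arrays, with no pair passing the adjusted test. Over the 11 arrays Tek and Ptprb had Pearson r = 0.69 (permutation p = 0.021) and Spearman rho = 0.77 (permutation p = 0.00787), Tie1 and Ptprb r = 0.69 (permutation p = 0.0211) and rho = 0.71 (permutation p = 0.0178), and Tek and Tie1 r = 0.62 (permutation p = 0.0436) and rho = 0.65 (permutation p = 0.0372). After adjustment over the 10 pairs none passed, with permutation adjusted p = 0.106, 0.106 and 0.145 for r and 0.0787, 0.0888 and 0.124 for rho. The tests were two-sided. Without the 2 arrays farthest from the median of the first gene, r was 0.85, 0.45 and 0.61, and with group means subtracted it was 0.84, 0.67 and 0.69. Angpt2 had r of 0.37, 0.21 and 0.06 with Tek, Tie1 and Ptprb, and 0.50, 0.52 and 0.63 with group means subtracted. Without the 2 arrays farthest from the Angpt2 median these r were 0.09, -0.16 and -0.03. Angpt1 had r between -0.01 and 0.19 with the other 4 genes. Without the 2 arrays farthest from the Angpt1 median, r was 0.26 with Angpt2, 0.36 with Tek, 0.49 with Tie1 and 0.36 with Ptprb. The arrays differed in endothelial and macrophage markers and in tumour-high genes, whose part in these correlations was not tested. Untreated replicate 1, short-term replicate 1 and long-term replicate 4 had the lowest Tek levels (8.82, 8.85 and 9.18). They also had the lowest endothelial marker means (9.84, 9.92 and 9.94), with macrophage means of 7.05, 4.41 and 6.47. Long-term replicate 3, highest in macrophage markers (7.11), had a Tek level of 9.33.

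**Figure D5:**
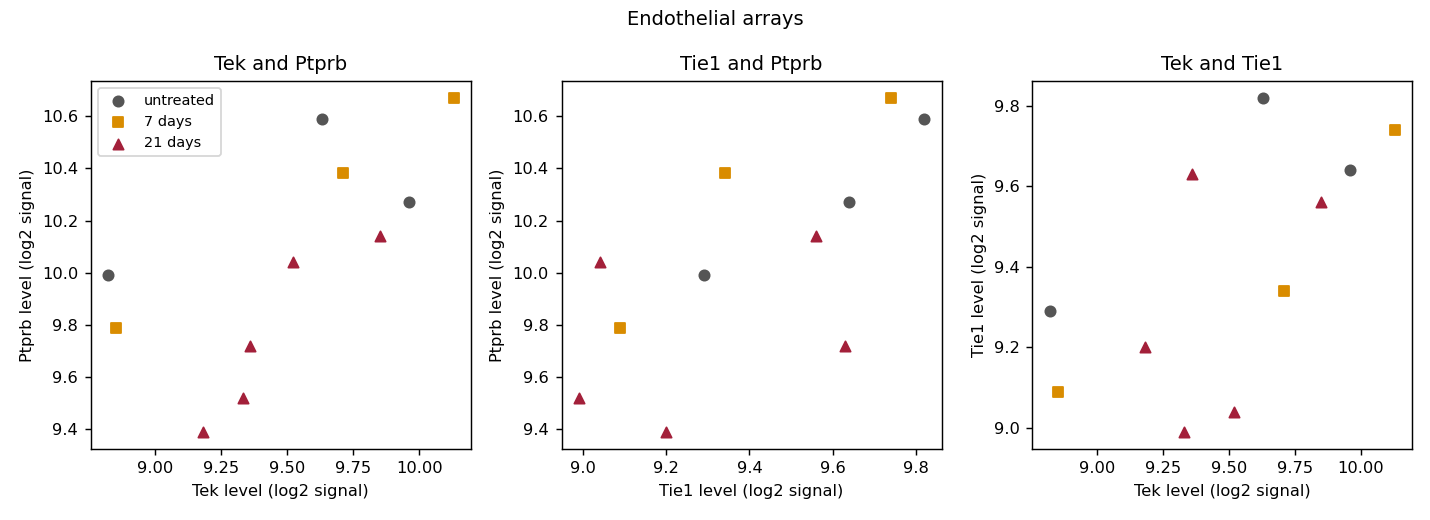
Log2 levels of Tek, Tie1 and Ptprb against each other in the 11 endothelial arrays, 1 point per array and 1 symbol per treatment group. Arrays with a high Tek level also tend to have a high Ptprb level (r = 0.69), and the 3 lowest Ptprb levels are long-term arrays.

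The genes whose endothelial pattern was most like each member's were found over the 11 endothelial arrays, among 8381 genes of at least median level and an SD of 0.25 or more. For Tek they were Sbf2 (r = 0.978), the cytokine receptor kinase gene Jak1 (0.969) and Fry (0.959). For Tie1 they were Ino80d (0.952), Pitpnm2 (0.882) and the mechanosensitive channel gene Piezo1 (0.876). For Ptprb they were Rasal2 (0.917), the phosphatase gene Ptpn4 (0.912) and Eif2ak2 (0.910), and for Angpt2 Tbc1d17 (0.905), the junction gene Pkp4 (0.898) and Spata13 (0.894). Angpt1 was most like Gzf1 (0.902), Ezh1 (0.880) and Cog5 (0.859). Over the 12 tumour arrays, among 3900 genes, Angpt1 was most like the thrombomodulin gene Thbd (0.937), Pcdhb16 (0.890) and Cpq (0.851). These genes were picked for their correlation from a large number, so the values only describe these arrays.

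The wider pathway was followed through 5 lists, whose counts stand against 8.18% of all genes called higher and 10.2% called lower between untreated endothelial and tumour cells. The other ligands, Angpt4 and the Tie1 ligand genes Svep1 and Lect2, had 0 of 3 called by limma between untreated endothelial and tumour cells, with differences of 0.07, 0.17 and 0.24. Of 22 receptor partners and signalling genes 9 were higher and 3 lower in untreated endothelial cells, with a median of 0.38 against 0.03 over all genes. Cdh5, the VE-cadherin gene, was higher by 7.92 ± 0.26 units (limma adjusted p = 7.02e-15), Nos3, the endothelial nitric oxide synthase gene, by 4.05 and Itgb3, an integrin subunit gene, by 2.45. Of 16 transcription factor genes 9 were higher and 3 lower (median 1.39), with Erg at 5.08, Fli1 at 4.62, Epas1 at 4.57 and Ets1 at 3.26. Cdh5 of the partner list and Erg and Tal1 of the transcription factor list are also among the 18 endothelial markers. Their calls therefore repeat the separation of the sorted cells. Of 10 Weibel-Palade body genes 3 were higher, Igfbp7 (6.61), Ece1 (3.44) and Vwf (2.99), and Cd63 was lower (-0.71). Of 17 FOXO target genes 3 were higher and 3 lower, with a median of -0.46. Insr (3.20) and Klf2 (2.09) were among the higher and Bcl6 (-1.80) and Cited2 (-1.10) among the lower ones.

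Under treatment the same lists held few calls. In the 3 endothelial comparisons limma called 0 genes of each list, and 0% of all genes. Among FOXO target genes Txnip, from 7 to 21 days, had the smallest p of the 3 comparisons, at -0.73 ± 0.17 (adjusted p = 0.354). Against untreated cells it was Sesn1, at -1.07 ± 0.32 after 7 days (adjusted p = 0.549) and -0.87 ± 0.28 after 21 days (adjusted p = 1.00). Vwf, whose product forms the Weibel-Palade bodies, was at 0.81 ± 0.48 and 1.06 ± 0.43, and the kinase gene Akt1 at 0.51 ± 0.16 and 0.36 ± 0.14, none of which passed. After 7 days Edn1 had the smallest p of the Weibel-Palade body genes, at 1.64 ± 0.84 (limma adjusted p = 0.656). In tumour cells 0 listed genes were called against untreated cells in either comparison. From 7 to 21 days of treatment 5 were called. Itga5, an integrin subunit that can bind angiopoietins, fell by 0.95 ± 0.14 (limma adjusted p = 0.00836), Ets2 fell by 1.07 ± 0.18 (adjusted p = 0.0163) and Klf2 by 0.89 ± 0.18 (adjusted p = 0.0379). Ets1 rose by 0.59 ± 0.09 (adjusted p = 0.0133) and the cell cycle inhibitor gene Cdkn1b by 0.58 ± 0.12 (adjusted p = 0.0406). They were 1 of 22, 2 of 17 and 2 of 16 genes on their lists, against 1.22% of all genes. Dissociation and immediate early markers were lower in the same comparison, with 11 of 11 negative, 1 called and a median of -0.40; their part in these 5 changes was not tested.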

How the data were processed

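Expression was measured on 23 arrays. The authors deposited 1 log2 signal per transcript cluster and array. The submitters' processing notes name RMA and the oligo package, without versions. RMA equalises the distribution of values between arrays, so differences are relative to the other transcripts of an array. The values span 1.93 to 14.06. Precision is limited by the number of arrays.

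The deposited table held 35556 clusters, of which 21789 named 1 gene in the platform annotation, 1621 several and 12146 none. The RefSeq table (GRCm38.p6) supplied current symbols by gene identifier for 21698 of them, and the cluster with the highest mean was kept per gene. No filter on low values was used. Averaged over all 23 arrays, all 5 genes exceed the median gene's mean level. For Tek, Tie1 and Ptprb that average joins endothelial means of 9.49, 9.39 and 10.05 with tumour means of 3.33, 4.14 and 3.83. Treatment groups were compared in 1 limma fit per cell type and cell types in 1 fit over all arrays (limma 3.58.1, R 4.3.3), with two-sided p-values adjusted within each comparison. The fits were tested on simulated data. Of changes of 1 log2 unit, 55%, 65% and 55% were recovered as calls in the endothelial treatment comparisons and 90% to 98% in tumour cells. Between cell types 75% to 81% were recovered, and 44% (short-term) and 57% (long-term) of differences of effects. Of changes of 2 units 87% to 100% were recovered. False calls were 2.05% to 10.6% of calls, highest for the long-term difference of effects. A missing call in endothelial cells does not by itself exclude a 1-unit change. The members, the lists and the tests were chosen with earlier results of these data known. Named besides the 5 genes were the 3 genes most like each, and from each list up to 4 called genes with the smallest p or, with none called, up to 2. Flt4, Lyve1, Abcc9, Rgs5, Pdgfrb and C1qb, among the cell type markers, were chosen after their values were seen. List genes without a cluster of their own were not analysed here.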

Additional observations from a re-analysis of the deposited data

Results flagged for a closer look

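Each of the 5 genes was searched for an array far from the others in the groups of 4 or 5 arrays, 15 sets in all. Angpt2 in long-term endothelial replicate 3, at 6.96, lay apart from the other 4 arrays of its group, with a gap of 0.82 of the group's whole range. The limit for a group of 5 is 0.71, which chance alone passes in about 1 in 20 groups. The same array had the highest Angpt1 level (7.22), macrophage mean (7.11), fibroblast mean (7.10) and mean of tumour-high genes (7.26) of the 11 endothelial arrays. The part of these in its Angpt2 level was not tested.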

How the results depend on the processing

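The 15 differences of the 5 genes between cell types were called under all 32 alternatives run (480 values, limma adjusted p up to 0.0187). Of these alternatives 23 left out 1 array each, which cannot change an estimate between groups that do not hold that array. The filters and the mean of all clusters could not change the estimates either, since each of the 5 genes passed the filters and had 1 cluster. Many of the 480 values therefore repeat the main estimate and are not separate checks. The marker covariates were run only within endothelial cells. None of the 30 treatment differences was called in 675 values (lowest adjusted p 0.152), and none of the 10 differences of effects in 320 (lowest adjusted p 0.531). The dissociation marker covariate moved the endothelial difference of Tek from untreated cells to 1.52 after 7 and 1.57 after 21 days, and the macrophage covariate that of Angpt1 after 7 days to 0.83. Signs were less fixed: 50 treatment values in 17 results and 21 in 7 differences of effects turned, all of them uncalled, and the cause was not tested.

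For short-term against untreated endothelial cells, array weights turned Angpt2 to 0.22 and Ptprb to 0.05, renewed quantile normalization Ptprb to 0.06, and subtracting the endothelial marker mean Angpt2 to 0.02 and Ptprb to 0.09. The dissociation marker covariate gave 0.84 for Angpt2, 0.48 for Tie1 and 1.05 for Ptprb, and the macrophage covariate -0.15 for Tek. Leaving out the 3 macrophage-high arrays gave -0.04 for Angpt1 and -0.23 for Tek. For long-term against untreated cells that gave -0.77 for Angpt1, the dissociation covariate 1.57 for Tek, 0.45 for Tie1 and 0.66 for Ptprb, and the endothelial mean 0.01 for Tek. For long-term against short-term cells Tek was at 0.13 with the macrophage covariate, 0.05 with the dissociation covariate and 0.01 without the 3 arrays, and Tie1 at 0.06 with the macrophage covariate and 0.02 without those arrays. Array weights turned Tie1 in long-term against short-term tumour cells to -0.01. The cell type difference of the short-term effect was -0.20 for Angpt1 and -0.28 for Tek without the 3 arrays, chosen there after seeing the data.

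Leaving out each array in turn turned the sign of further uncalled values, given as lowest and highest. For short-term against untreated endothelial cells the ranges were -0.18 to 0.81 for Angpt1, -0.57 to 0.51 for Angpt2, -0.23 to 0.45 for Tek and -0.20 to 0.24 for Ptprb. For long-term against untreated endothelial cells the ranges were -0.41 to 0.66 for Angpt1 and -0.35 to 0.22 for Tek. For long-term against short-term endothelial cells the ranges were -0.61 to 0.17 for Angpt1, -0.48 to 0.17 for Tek and -0.26 to 0.07 for Tie1. For short-term against untreated tumour cells the ranges were -0.03 to 0.35 for Angpt1 and -0.03 to 0.17 for Tek. For long-term against short-term tumour cells the ranges were -0.18 to 0.14 for Angpt2, -0.03 to 0.03 for Tie1 and -0.11 to 0.02 for Ptprb. For the difference of the short-term effect the ranges were -0.34 to 0.65 for Angpt1, -0.28 to 0.80 for Angpt2, -0.28 to 0.40 for Tek, -0.22 to 0.11 for Tie1 and -0.36 to 0.08 for Ptprb. For the difference of the long-term effect the ranges were -0.65 to 0.41 for Angpt1 and -0.49 to 0.08 for Tek.

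No pairing by replicate number was seen: deviations of same-numbered arrays correlated at -0.15 to 0.11 in endothelial cells, -0.10 to 0.08 in tumour cells and -0.11 to 0.06 between cell types. The labels do not say whether same-numbered tumour and endothelial arrays came from the same mouse, and these correlations cannot exclude it. With the replicate number as a block no call changed, Angpt2 in long-term against untreated endothelial cells was at 0.58, and the Angpt1 difference of the short-term effect turned to -0.04. Renewed quantile normalization and median centring each moved the median of all genes by -0.11 in short-term endothelial against tumour cells, and by less than 0.1 elsewhere.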
